A study of Brassica rapa subsp. pekinensis with 6 samples.

Results

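Among the assembled transcripts of germinated Chinese cabbage seeds, 850 isoforms belonged to 143 genes that each held many isoforms. A gene was taken when its gene_id, the locus that the transcript assembler gave it, held at least 5 transcripts of class code j and exactly 1 transcript of class code 0. Class j marks an assembled transcript that shares a splice junction with an annotated transcript but not its whole structure, and class 0, which is not explained in the sources used here, was read as the annotated transcript, since its rows carry annotated gene names and coding lengths. The 850 isoforms were 850 of 18514 class j transcripts in the table, which listed 57931 transcripts in 37173 gene_ids. For each isoform, its share was its estimated count as a percentage of the count sum of its gene_id in the same library. The 143 genes also held 7 transcripts of other classes, 5 between genes and 2 with another exonic overlap, which were kept in the gene sums but are no members.

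Vernalized seeds (Ver) had germinated and were then held in darkness for 25 days at 4 °C, and non-vernalized seeds (Nor) had germinated for about 48 hours at room temperature, also in darkness. Both groups were the same doubled haploid line, FT, and were sampled once they had reached an equal length, so age differs between the groups together with temperature. Each group had 3 libraries, and the authors name a dish of 20 seeds as a biological replicate. Seeds were divided into the groups after germination, so whether Nor and Ver libraries share dishes is not settled. The libraries held 95919873 to 97291567 estimated counts in Ver and 83976912 to 104903263 in Nor. As a check of the tissue, 55 annotated transcripts of seed storage, oil body and late embryogenesis proteins summed to 1885 to 1918 FPKM in Ver and 154.9 to 164.7 FPKM in Nor, with none of the 55 at 0 in all libraries. The 29 transcripts of chlorophyll-binding proteins and the small subunit of Rubisco summed to 15097 to 15361 FPKM in Ver and 8050 to 8474 FPKM in Nor, again with none at 0 in all libraries. Both lists moved with the groups, and their part in the results on isoforms was not tested. In such bulk samples, fewer cells of a type and less RNA per cell cannot be told apart.

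Alternative splicing lets a gene give several mature RNAs, which can differ in coding sequence, in untranslated ends or in whether an intron stays in the RNA. In plants, retained introns are the most common form, and many such RNAs are either held in the nucleus or degraded. Splicing of several clock and flowering genes is known to respond to temperature in Arabidopsis. The isoforms described here are models built from short reads, so an isoform's count is an estimate that divides reads among transcripts that overlap.

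Of the 143 genes, 78 held 5 class j isoforms, 32 held 6, 20 held 7 and 6 held 8. The remaining 7 genes held 9 to 17. The genes lay on all chromosomes, with the fewest, 6, on A04 and the most, 21, on A03. For 52 of the 143, the description was an uncharacterized protein or only a locus name of Brassica napus. In 8 genes the rows carried more than 1 entry as gene name, where a missing name counts as an entry, as in MSTRG.25153. Whether the isoforms of all 8 cover neighbouring genes was not tested. The annotated transcripts of the 143 genes had a median of 10 exons, with a range of 2 to 49, and a median coding length of 1698 bases. The annotated transcripts of all other genes with counts had a median of 4 exons and a coding length of 1032 bases. All class 0 lengths were multiples of 3, so they hold no untranslated ends, whereas 273 of the 850 isoforms had such a length. The isoforms had a median of 8 exons and 2120 bases. The median gene had 4 different starts and 3 different ends among its isoforms, and 340 of the 850 isoforms reached beyond the annotated transcript at both ends.

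The many-isoform genes were also abundant. Their mean count sum per library had a median of 2558, against 466.7 for all other genes with counts. The isoforms that the rule counts were assembled from these same reads, so count sum and exon number may not be independent of the rule. Just inside the rule, the 78 genes with 5 isoforms had a median count sum of 2472, and just outside it, the 215 genes with 4 isoforms had 2115. Their most abundant transcript held a median of 55.1% of the gene in the first set and 59.6% in the second.

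In a minority of these genes the annotated transcript was the main form. The rule takes only genes in which at least 5 class j isoforms stand beside it, and the annotated models hold no untranslated ends. Its shares here were not set against those in other genes. By mean share the annotated transcript was the most abundant in 34 of 143 genes in Ver and 29 in Nor, and its mean share was under 5% in 73 genes in Ver and 74 in Nor. Over all 143 genes it took 15.6, 15.1 and 13.3% of the summed counts in the Ver libraries, against 14.4, 13.1 and 13.7% in the Nor libraries. The 2 ranges overlapped. The most abundant transcript of a gene, whichever class it had, held a median of 48.2, 50.1 and 51.8% in the Ver libraries and 49.3, 50.3 and 51.3% in the Nor libraries.

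Gene sums repeated well between dishes, and isoform counts did not. The count sums of the 143 genes, per library total, had a median coefficient of variation of 6.78% over the 3 Ver libraries and 6.06% over the 3 Nor libraries. The isoforms with a mean of at least 100 counts had 54.5% in Ver (595 isoforms) and 59.9% in Nor (574 isoforms). The class j isoforms of all other genes, filtered alike, had 19.8% in Ver and 19.9% in Nor. With 1 class 0 transcript in the gene, this variation was 11.6% in Ver and 11.3% in Nor where the gene held a single class j isoform. It was 47.9% in Ver and 47.1% in Nor for genes with 4, 57.1% in Ver and 65.3% in Nor for genes with 5, and 36.5% in Ver and 47.2% in Nor for genes with 6, so it did not grow at every step. For genes with 7 or more it was 68.3% in Ver and 62.9% in Nor. The median count of the isoforms in these sets was 718.7 in Ver and 709.3 in Nor for single isoforms and 456 in Ver and 398.7 in Nor for genes with 5.

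In share terms, 404 of the 850 isoforms differed by at least 10 percentage points among the 3 Ver libraries, and 410 did so among the 3 Nor libraries. In Ver, 116 isoforms had 0 counts in a library and at least 10% of the gene in another, and in Nor 120 did. A further measure is the main transcript itself. It was the same transcript in all 3 Ver libraries in 49 genes, in all 3 Nor libraries in 44 and in all 6 libraries in 31. No gene had the same main transcript in all 3 Ver libraries and a different single main transcript in all 3 Nor libraries. The median absolute difference of mean share between Ver and Nor was 4.99 points, and the median SD of a share was 4.78 points in Ver and 5.12 points in Nor.

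**Figure D1:**
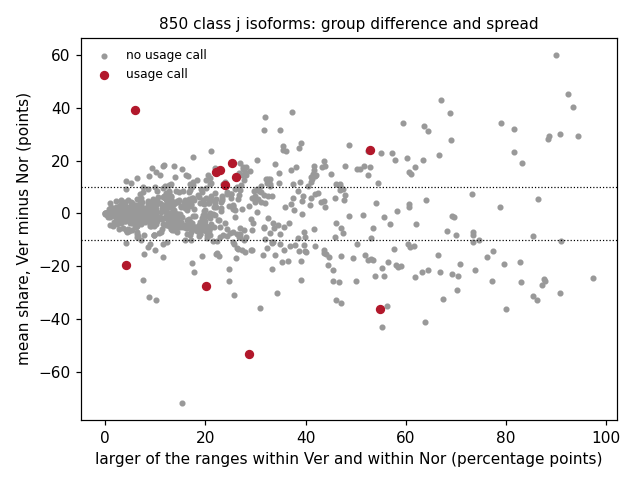
Mean share in Ver minus mean share in Nor (percentage points, vertical) for the 850 class j isoforms, plotted against the larger of the ranges within the Ver and within the Nor libraries (percentage points, horizontal). Red points are the 11 isoforms with a usage call, and dotted lines mark 10 points in either direction. Many grey points with a large difference also have a large range within a group.

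The genes with the most isoforms show this spread. MSTRG.1490 (BraA01g019360.3C, A01:10358838-10361778, plus strand), described only by a B. napus locus, held 17 isoforms, the highest number. Its count sum was 3212, 6101 and 5743 in Ver and 4726, 2299 and 2980 in Nor, and the groups overlapped. Its annotated transcript took at most 0.218% in any library, in both groups. Its most abundant isoform, MSTRG.1490.1 with 8 exons, took 40.7, 18.5 and 22.2% in Ver, against 17.9, 16.2 and 30.7% in Nor, again with overlap. Most of the other isoforms took under 10% in each library.

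MSTRG.21358 (BraA07g041750.3C, A07:28108013-28115753, plus strand) held 12 isoforms and is described as gamma-glutamyl hydrolase 2, a family of enzymes that trims the glutamate tail of folates. Its count sum was 3055, 3140 and 2949 in Ver and 2814, 2363 and 3058 in Nor. Its annotated model has 26 exons, whereas the 12 isoforms have 11 to 16. The share of MSTRG.21358.3 was 14.0, 25.9 and 19.1% in Ver and 3.91, 0.127 and 0% in Nor, where a count of 0 allows up to 0.0981% in the third library. These shares did not overlap, but the isoform had no usage call (edgeR adjusted p = 0.811). The limit for a count of 0, here and below, covers counting error only, not the division of reads among overlapping isoforms.

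MSTRG.1471 (palmitoyl-protein thioesterase 1-like, an enzyme that removes fatty acids from proteins) and MSTRG.6197 (a B. napus locus) held 11 isoforms each. In MSTRG.1471, the isoform MSTRG.1471.6 took 7.62, 1.89 and 5.73% in Ver and 0, 61.8 and 25.7% in Nor. Its neighbour MSTRG.1471.7 took 22.5, 12.4 and 39.8% in Ver and 0, 0 and 21.8% in Nor. In both, the Nor libraries ranged further than the difference between the groups. In MSTRG.6197, the isoform MSTRG.6197.1 took 24.6, 32.3 and 38.2% in Ver and 7.92, 28.2 and 1.35% in Nor. MSTRG.22233 (an uncharacterized protein on A08) held 9 isoforms, and its rows carry more than 1 gene name. Its isoform MSTRG.22233.4 had counts in a single library, with 0, 0 and 0% in Ver and 0, 0 and 33.4% in Nor.

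MSTRG.15504 (BraA06g002280.3C, A06:1378755-1401877, an uncharacterized protein) also held 11 isoforms and was by far the most abundant of the 143 genes. Its count sum was 51384, 57647 and 56446 in Ver and 125193, 109704 and 145610 in Nor. The sum fell in Ver, with a log2 fold change of -1.20 ± 0.06 (SE, edgeR adjusted p = 1.81e-07). It made up 9.01, 9.82 and 9.18% of the summed counts of the 143 genes in Ver and 18.9, 19.6 and 21.0% in Nor. Its isoforms did not repeat within groups. MSTRG.15504.5 took 17.9, 73.1 and 11.1% in Ver, against 26.4, 26.3 and 61.5% in Nor. MSTRG.15504.9 took 23.7, 0 and 28.0% in Ver, against 55.6, 0 and 0% in Nor. MSTRG.15504.6 had 19282 counts in a single Nor library and 0 in the other 5 libraries. No transcript of this gene had an adjusted p of at most 0.05 for usage.

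Of the other abundant genes without any transcript at that threshold, MSTRG.19747 (BraA07g020890.3C, A07:17248652-17261295) encodes a CCR4-NOT transcription complex subunit 1-like protein, the scaffold of the main complex that shortens poly(A) tails. Its gene sum was 20534, 21419 and 23059 in Ver and 20224, 16709 and 20279 in Nor. All 5 isoforms had 48 exons and 7332 to 7416 bases, so they differed little in length. MSTRG.19747.4 took 2.13, 88.5 and 88.1% in Ver and 84.7, 0.449 and 77.5% in Nor. In the first Ver library and the second Nor library, the other 4 isoforms instead held near-equal shares, at 22.7 to 24.1% each in the Ver library and 22.3 to 27.7% each in the Nor library. MSTRG.25153, an E3 ubiquitin-protein ligase UPL1-like gene that also holds transcripts between genes without a gene name, had the isoform MSTRG.25153.1 at 60.8, 90.0 and 81.5% in Ver and 94.0, 73.8 and 83.0% in Nor. MSTRG.18717, described by a B. napus locus, was steadier. Its isoform MSTRG.18717.1, with 9 exons against 20 in the annotated model, took 87.3, 87.2 and 91.6% in Ver and 87.6, 80.2 and 85.4% in Nor.

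**Figure D2:**
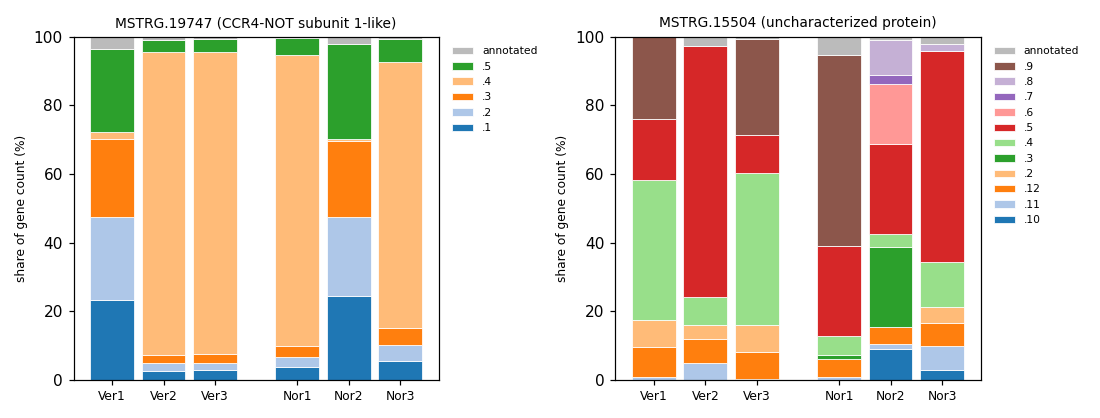
Share of the gene count (%, vertical, from 0 to 100) of each transcript in the 3 Ver and 3 Nor libraries, for MSTRG.19747 on the left and MSTRG.15504 on the right. Each colour is a class j isoform by its number and grey is the annotated transcript. MSTRG.19747.4 held 2.13, 88.5 and 88.1% in the Ver libraries.

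The usage test asked whether an isoform's fold change between Ver and Nor differed from that of its gene (diffSpliceDGE of edgeR, adjusted over all transcripts tested). A call also needed a difference of mean shares of at least 10 percentage points. Of the 850 isoforms, 713 passed the filter on low counts and were tested, and 137 were not. An isoform with 0 counts throughout a group could pass this filter only through the other group, where it is high. This holds for the called isoforms MSTRG.14350.5, MSTRG.5752.5 and MSTRG.28269.4, and for MSTRG.1609.2 and MSTRG.27348.4, all described below. Their adjusted p values are therefore not taken as support. The test called 11 of the 713, or 1.54%, with 7 higher and 4 lower in Ver. Over all 28354 transcripts tested, 190 were called, or 0.67%, with 0.363% higher and 0.307% lower. Among class j isoforms of all other genes, 100 of 14730 were called, or 0.679%, with 0.326% higher and 0.353% lower. The 11 lay in 8 of the 143 genes, and calls within a gene are not independent, since its shares divide a single sum. The backgrounds here were not matched for the number of transcripts or for count sum. These rates are therefore not a like comparison. Without the share threshold, 17 isoforms of the 713 had an adjusted p of at most 0.05, against a background of 0.857% over all transcripts and 0.788% over class j isoforms of all other genes. None of the 108 annotated transcripts tested in these genes was called. Leaving out each library in turn gave 9 to 14 calls, of which 6 to 8 were among the 11.

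The clearest change was in MSTRG.1609 (BraA01g021300.3C, A01:11607260-11610424, minus strand), a CSC1-like protein. CSC1 and its relatives in the OSCA family are cation channels of Arabidopsis that open under osmotic or mechanical stress. The count sum was 7653, 8156 and 8614 in Ver and 2307, 1864 and 2276 in Nor. The sum rose in Ver, with a log2 fold change of 1.92 ± 0.04 (SE, edgeR adjusted p = 4.07e-10). The main isoform in Ver was MSTRG.1609.3 (A01:11606404-11610962, 15 exons, 3120 bases). It took 42.7, 39.7 and 36.8% in Ver, against 0.520, 1.02 and 0% in Nor, where a count of 0 allows up to 0.132%. The groups lay far apart, the mean share rose by 39.2 points, and the edgeR adjusted p was 1.91e-06. This call held under all 17 alternative settings and left-out libraries, although some settings, such as no threshold on the share, could not remove a call.

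The main isoform of MSTRG.1609 in Nor was MSTRG.1609.5 (A01:11607137-11610996, 12 exons, 2903 bases). It took 7.36, 6.63 and 5.50% in Ver, against 61.7, 73.5 and 44.7% in Nor. The shares did not overlap, and the mean share fell by 53.5 points (edgeR adjusted p = 0.0105). Without any single Ver library the adjusted p was 0.0967 to 0.1345, with a difference of -53.9 to -53.0 points. With the replicate number as a block in the edgeR fit, the adjusted p was 0.115. Of the other isoforms, MSTRG.1609.1 and MSTRG.1609.2 share the left end of MSTRG.1609.3, which on the minus strand is the downstream end, and both have 15 exons. MSTRG.1609.1 took 4.80, 3.96 and 6.13% in Ver and 0, 0.107 and 0.220% in Nor. MSTRG.1609.2 took 3.87, 3.74 and 4.76% in Ver and had 0 counts in Nor. So the 3 isoforms that end at this position were all higher in Ver. The edgeR adjusted p was 0.00253 for MSTRG.1609.1 and 0.000222 for MSTRG.1609.2. Neither of them had a usage call, since their mean shares rose by 4.85 and 4.12 points, under the threshold of 10. Both fall outside the rule for named isoforms. MSTRG.1609.6, with the span of MSTRG.1609.5, 13 exons and 107 bases less, took 15.7, 16.5 and 17.9% in Ver and 34.0, 16.3 and 47.7% in Nor, with overlap. In the last Nor library it, and not MSTRG.1609.5, held the largest share.

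MSTRG.1609 was the single gene of the 143 in which the main isoform differed between Ver and Nor and both forms were called. The background was 0.114% of 13181 genes with more than 1 transcript. Without any single Ver library the number of such genes was 0, since MSTRG.1609.5 was then not called, and without the first Nor library it was 2. By mean share alone, the main transcript differed in 67 of the 143 genes, or 46.9%, against 12.7% of all such genes. Neither background was matched for the number of transcripts. Each of the 143 holds at least 5 class j isoforms beside the annotated form, whereas the background starts at genes with more than 1 transcript. These rates are therefore not a like comparison. As given above, in none of the 67 was the main transcript a fixed one in each group.

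**Figure D3:**
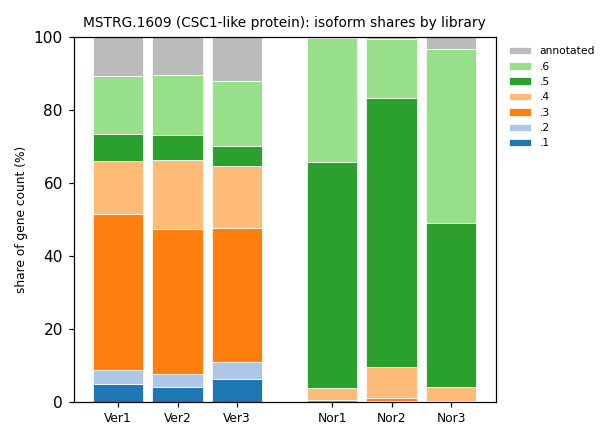
Share of the count of MSTRG.1609 (%, vertical, from 0 to 100) held by each transcript in the 3 Ver and 3 Nor libraries. Colours are the 6 class j isoforms by number and grey is the annotated transcript. MSTRG.1609.3 held 36.8 to 42.7% in Ver and at most 1.02% in Nor, and MSTRG.1609.5 held 5.50 to 7.36% in Ver and 44.7 to 73.5% in Nor.

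The other calls that rose in Ver were less even between dishes. In MSTRG.17589 (BraA06g033080.3C, A06:22644892-22646850, a B. napus locus), the isoform MSTRG.17589.4 took 3.21, 17.02 and 56.1% in Ver, against 2.57, 0.758 and 0.549% in Nor. The shares did not overlap and the mean rose by 24.2 points (edgeR adjusted p = 0.000653), but the lowest Ver library lay close to the highest Nor library. Without the third Ver library the difference was 8.82 points with an adjusted p of 0.176.

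In MSTRG.14350 (BraA05g029900.3C, A05:22025408-22026231), also a B. napus locus, the isoform MSTRG.14350.5 took 34.7, 9.36 and 12.7% in Ver. It had 0 counts in all Nor libraries, which by counting error alone allows at most 0.257 to 0.293% there. The mean share rose by 18.9 points (edgeR adjusted p = 0.000915), and by 11.03 points without the first Ver library. The annotated model of this gene has 3 exons and a coding length of 207 bases, whereas the isoform has 8 exons and 1187 bases. The isoform MSTRG.14350.6, also with 8 exons, was lower in Ver without overlap but was not called, at 22.7, 16.7 and 16.8% in Ver and 23.4, 29.8 and 26.3% in Nor.

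In MSTRG.5752 (BraA02g043170.3C, A02:29906085-29907232), a partial B. napus locus, the isoform MSTRG.5752.5 took 5.79, 15.0 and 28.8% in Ver and had 0 counts in Nor, which allows up to 0.305, 0.498 and 0.309% there. Its mean share rose by 16.5 points (edgeR adjusted p = 2.39e-05), and by 10.4 points without the third Ver library. The isoform MSTRG.5752.1 of this gene was also called, at 5.63, 2.78 and 3.73% in Ver and 55.1, 5.48 and 60.3% in Nor, although the second Nor library lay within the range of Ver. It falls outside the rule for named isoforms, as does MSTRG.28269.5 below, and both were named after their values were seen.

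In MSTRG.1490, the gene with 17 isoforms, MSTRG.1490.15 took 1.31, 22.4 and 23.4% in Ver, against 0.190, 0.131 and 0.101% in Nor. The first Ver library was well below the other two. The mean rose by 15.6 points (edgeR adjusted p = 0.00412), and the adjusted p was 0.0575 without the second and 0.0564 without the third Nor library.

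In MSTRG.28269 (BraA09g065470.3C, A09:44690527-44692011, an uncharacterized protein), the Nor libraries held almost only 2 transcripts. MSTRG.28269.1 took 16.7, 35.0 and 9.27% in Ver, against 54.2, 49.2 and 51.0% in Nor. The annotated transcript took 9.61, 33.0 and 16.5% in Ver, against 44.4, 49.1 and 47.5% in Nor. Neither was called, although neither overlapped between the groups. The called isoforms were MSTRG.28269.4, at 4.54, 30.7 and 5.72% in Ver and 0 counts in Nor (at most 0.0941 to 0.127%), and MSTRG.28269.5, at 24.9, 0.941 and 7.78% in Ver and 0.376, 0.508 and 0.705% in Nor. Their edgeR adjusted p values were 0.000238 and 0.0241. A further isoform, MSTRG.28269.3, took 43.5, 0 and 59.4% in Ver and had 0 counts in Nor, and did not pass the filter. The leading transcript in Ver was MSTRG.28269.3 in the first and the last library and MSTRG.28269.1 in the other. Without the second Ver library the difference of MSTRG.28269.4 was 5.13 points, and without any single Nor library its adjusted p was 0.286 to 0.326. With voom and diffSplice of limma, the named rises in MSTRG.17589, MSTRG.14350, MSTRG.5752, MSTRG.1490 and MSTRG.28269 all lost their calls, with adjusted p values of 0.0835 to 0.46.

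Apart from MSTRG.1609.5 and MSTRG.5752.1, 2 isoforms fell in Ver. In MSTRG.5297 (A02, minus strand, a B. napus locus), MSTRG.5297.2 took 0.492, 0.231 and 1.86% in Ver, against 22.4, 18.3 and 20.7% in Nor. The libraries agreed closely within each group, and the mean share fell by 19.6 points (edgeR adjusted p = 9.57e-05). The call held without any single library. This locus carries more than 1 gene name, and the isoform (A02:24718115-24725121, 10 exons, 3625 bases) lies outside the annotated transcript at A02:24729930-24732068. Its neighbour MSTRG.5297.1, whose left end lies close to it and which has 8 exons, took 13.2, 17.5 and 15.5% in Ver and 3.34, 2.89 and 3.11% in Nor. It did not overlap between groups either, with a usage adjusted p of 0.236. Its own count rose by 2.53 ± 0.20 on the log2 scale (SE, edgeR adjusted p = 0.000812).

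In MSTRG.30497 (BraA10g032630.3C, A10:20219222-20222456, a B. napus locus with 16 annotated exons), MSTRG.30497.5 took 6.92, 8.01 and 4.17% in Ver, against 22.1, 37.4 and 42.2% in Nor. The shares did not overlap and the mean fell by 27.5 points, with an edgeR adjusted p of 0.0472. Leaving out each library in turn gave adjusted p values of 0.117 to 0.302 except without the first Nor library, where the call held. MSTRG.30497.2 took 52.6, 55.4 and 63.2% in Ver and 42.6, 7.71 and 5.41% in Nor, and was not called (adjusted p = 0.272). With no filter on low counts, neither MSTRG.30497.5 nor MSTRG.28269.4 was called, with edgeR adjusted p values of 0.137 for the first and 0.103 for the second.

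**Figure D4:**
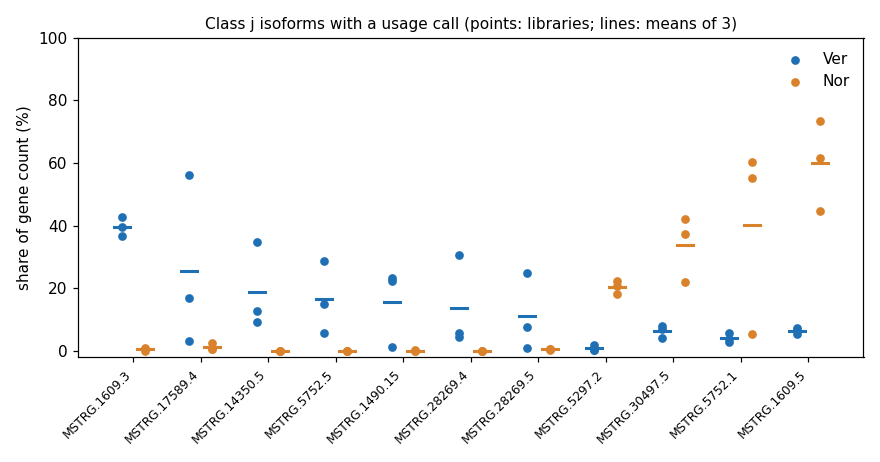
Share of the gene count (%, vertical) of the 11 class j isoforms with a usage call, ordered from the largest rise to the largest fall, with Ver in blue left of Nor in orange. Each point is a library and each line a mean of 3. MSTRG.1609.3, MSTRG.5297.2, MSTRG.30497.5 and MSTRG.1609.5 show separate groups, whereas MSTRG.17589.4 and MSTRG.1490.15 have a Ver library near the Nor values, at 3.21 and 1.31%, as does MSTRG.28269.5 at 0.941%.

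Shares of 140 of the 850 isoforms did not overlap between Ver and Nor, or 16.5%, with 70 higher and 70 lower. The background was 17.4% over all transcripts of genes with more than 1 transcript and 17.6% over class j isoforms of all other genes, so the members stood near the background. Of these 140, 67 differed by at least 10 points, and 57 of the 67 had no usage call. The largest was MSTRG.18350.4 of a putative UDP-arabinose 4-epimerase 4, an enzyme family that makes UDP-arabinose for cell wall polymers, named after its values were seen. It took 1.14, 4.84 and 0.308% in Ver, against 72.8, 81.9 and 66.7% in Nor (edgeR adjusted p for usage = 0.824). In Ver the gene was led by a different isoform in each library. MSTRG.18350.5 took 90.8% in the first, MSTRG.18350.1 took 95.2% in the second and MSTRG.18350.3 took 83.3% in the third. The gene sum, 3252, 1179 and 2594 in Ver and 786, 769 and 982 in Nor, rose by 1.47 ± 0.31 on the log2 scale (SE, edgeR adjusted p = 0.00291).

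A test of the whole gene, added after the data were seen, called 15 of the 143 genes for a change of usage in any transcript, or 10.5%, against 6.93% of 11465 genes. This background was not matched for the number of transcripts either. The 15 included the 8 genes with a called isoform except MSTRG.1490, whose adjusted p was 0.0620.

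The counts of single isoforms were tested apart from their genes. Of 713 tested, 92 were called, or 12.9%, with 50 higher and 42 lower in Ver. A call needed more than a 1-unit change on the log2 scale in either direction and a p, before adjustment, no higher than 0.05. The background was 16.6% of 49351 transcripts, with 8.34% higher and 8.25% lower, and 13.2% of class j isoforms of all other genes. With the adjusted p at 0.05, 56 of the 92 remained. The 92 lay in 61 genes. For 64 of the 92 the gene sum was not called, for 25 it was called in the same direction, and in 8 genes isoforms were called in both directions.

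Gene sums were called in 17 of the 143 genes, or 11.9%, with 11 higher and 6 lower, against a background of 19% of 32467 genes, 9.18% higher and 9.81% lower. The median log2 fold change was 0.07 over the 143 genes and 0.01 over all genes. All 17 also had an adjusted p of at most 0.05. The largest rises were in the clock gene LHY (MSTRG.28414), in LNK4 (MSTRG.30372), of a family of clock co-regulators in Arabidopsis, and in MSTRG.1609. APRR1 (MSTRG.9210), another clock gene, was also among the 11. LNK4 had 2888, 3209 and 3378 counts in Ver and 573, 481 and 614 in Nor, and rose by 2.50 ± 0.06 on the log2 scale (SE, edgeR adjusted p = 2.72e-09). Its transcripts did not repeat within groups, and the gene is not in the clock list below. The annotated form took 9.38, 57.7 and 51.8% in Ver and 54.1, 0 and 17.3% in Nor.

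Among the other genes with higher sums were an SPX domain-containing membrane protein (MSTRG.1064), of a family tied to phosphate transport, with 3544, 3805 and 3884 counts in Ver and 1364, 1165 and 1227 in Nor. The probable chlorophyll(ide) b reductase NYC1 (MSTRG.21875), which starts the breakdown of chlorophyll b, had 2620, 3004 and 3088 counts in Ver and 1437, 1191 and 1442 in Nor. These genes rose by 1.57 ± 0.06 and 1.09 ± 0.06 on the log2 scale (SE, edgeR adjusted p = 4.06e-08 and 3.21e-07).

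The largest fall was in 1-aminocyclopropane-1-carboxylate oxidase 1 (MSTRG.18583), the enzyme of the last step of ethylene synthesis. It had 108, 110 and 82 counts in Ver and 2402, 1959 and 2427 in Nor, and the log2 fold change was -4.50 ± 0.12 (SE, edgeR adjusted p = 5.50e-09). Its isoform MSTRG.18583.5, which has the span of the annotated transcript, 2 exons instead of 3 and 111 bases more, took 22.2, 30.9 and 25.6% in Ver, against 8.12, 14.0 and 14.5% in Nor. These shares did not overlap, but the isoform had no usage call.

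Isochorismate synthase 2 (MSTRG.16382), an enzyme that feeds salicylic acid and phylloquinone synthesis, had 354, 424 and 388 counts in Ver and 2446, 2292 and 2429 in Nor, a log2 fold change of -2.63 ± 0.09 (SE, edgeR adjusted p = 1.70e-08). Its annotated transcript had 0 counts in all Ver libraries and 8.83, 16.5 and 3.50% of the gene in Nor. MSTRG.16382.5, with 14 exons, had 0 counts in Ver, which allows up to 0.848, 0.708 and 0.773%, and 8.83, 33.5 and 20.8% in Nor (usage adjusted p = 0.0818). The counts left in Ver lay mostly in isoforms with 3 exons. MSTRG.16382.6 took 80.8, 81.1 and 2.06% in Ver and 23.8, 22.8 and 14.5% in Nor, and MSTRG.16382.2 took 0, 0 and 81.7% in Ver and 0.204, 7.59 and 4.32% in Nor. The caryophyllene synthase-like gene (MSTRG.10332), of volatile terpene synthesis, also fell, with 317, 310 and 418 counts in Ver and 2422, 1497 and 2250 in Nor.

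Of the gene lists, 4 of the 143 genes matched the clock and 4 the flowering list, with both copies of EARLY FLOWERING 3 in each. Of the 21 isoforms of the clock genes, 15 were tested, none had a usage call, against a background of 0.67% of transcripts, and 3 were higher and 2 lower in their own counts, against 8.34% higher and 8.25% lower over all transcripts. Of the 22 isoforms of the flowering genes, 17 were tested, none had a usage call, and 2 were lower, both of which are also in the clock list. The whole-gene usage test, however, called LHY and the EARLY FLOWERING 3 copy on A09 (edgeR adjusted p = 0.0279 and 1.06e-06). APRR1 and the copy on A04 were not called (edgeR adjusted p = 0.653 and 0.371). Its background was 6.93% of all genes. The median log2 fold change of the gene sums was 0.81 for the clock genes and 0.28 for the flowering genes, against 0.01 over all genes.

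LHY encodes a MYB factor of the clock that peaks at dawn in Arabidopsis. MSTRG.28414 (BraA10g000820.3C, A10:418303-421107, plus strand) had 2416, 2751 and 2766 counts in Ver and 293, 280 and 307 in Nor, and rose by 3.16 ± 0.08 on the log2 scale (SE, edgeR adjusted p = 2.69e-09). Its isoform MSTRG.28414.3, with 10 exons against 7 annotated, took 12.4, 22.1 and 47.9% in Ver and 1.71, 0 and 4.56% in Nor. MSTRG.28414.5, also with 10 exons, took 35.4, 5.20 and 21.2% in Ver and 0, 0.714 and 0% in Nor. Both were separate between groups and neither was called, with usage adjusted p values of 0.500 and 0.200. Their own counts rose (edgeR adjusted p = 0.0165 and 0.00708). MSTRG.28414.4 took 49.3, 1.75 and 9.76% in Ver and 97.3, 54.6 and 17.3% in Nor. The annotated form took 2.57, 1.42 and 6.47% in Ver and 0, 44.6 and 77.9% in Nor. With 280 to 307 counts per Nor library, a count of 0 there allows up to 0.977 to 1.07%.

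APRR1 is the ortholog of TOC1, an evening repressor of the Arabidopsis clock. MSTRG.9210 (BraA03g044360.3C, A03:22407714-22409910, plus strand) had 6017, 5692 and 6006 counts in Ver and 2969, 2270 and 2704 in Nor, a log2 fold change of 1.16 ± 0.05 (SE, edgeR adjusted p = 1.33e-07). Its main isoform was MSTRG.9210.5, with 5 exons, in all 6 libraries, at 59.2, 59.9 and 60.4% in Ver and 55.7, 75.7 and 76.0% in Nor. MSTRG.9210.1, also with 5 exons, took 30.6, 18.3 and 30.3% in Ver and 5.25, 19.2 and 13.3% in Nor, with overlap. Its count rose by 2.25 ± 0.50 on the log2 scale (SE, edgeR adjusted p = 0.0255).

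EARLY FLOWERING 3 is part of the evening complex of the Arabidopsis clock and represses growth and flowering. The copy on A04 (MSTRG.11554, BraA04g019090.3C, A04:14426412-14429545, plus strand) had 3759, 3764 and 3820 counts in Ver and 2716, 2339 and 3196 in Nor. Its annotated form, with 4 exons, took 47.9, 43.8 and 43.3% in Ver, against 31.8, 22.9 and 16.1% in Nor. MSTRG.11554.6, of the same span but with 5 exons and 521 bases more, took 1.33, 4.04 and 3.38% in Ver, against 12.5, 21.9 and 24.0% in Nor. Both forms were separate between the groups, in opposite directions. Neither was called for usage (edgeR adjusted p = 1 and 0.787), while their own counts were, with log2 fold changes of 1.41 ± 0.21 and -2.31 ± 0.52 (SE, edgeR adjusted p = 0.00697 and 0.0264). In contrast, MSTRG.11554.4, of the same span with 2 exons and 946 bases more, took 22.6, 20.03 and 18.2% in Ver and 20.4, 20.1 and 18.2% in Nor.

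The copy on A09 (MSTRG.27348, BraA09g052890.3C, A09:38485435-38488092, plus strand) had 3054, 3451 and 3619 counts in Ver and 3395, 2829 and 3380 in Nor. Its annotated form took 77.6, 68.8 and 78.8% in Ver and 64.3, 69.7 and 66.8% in Nor, with overlap. MSTRG.27348.4, of the same span and exon number with 544 bases more, had 0 counts in all Ver libraries, which allows up to 0.0982, 0.0869 and 0.0829%, and took 7.13, 6.57 and 12.9% in Nor. Its usage adjusted p was 5.06e-07, but the difference of -8.87 points was under the threshold of 10.

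**Figure D5:**
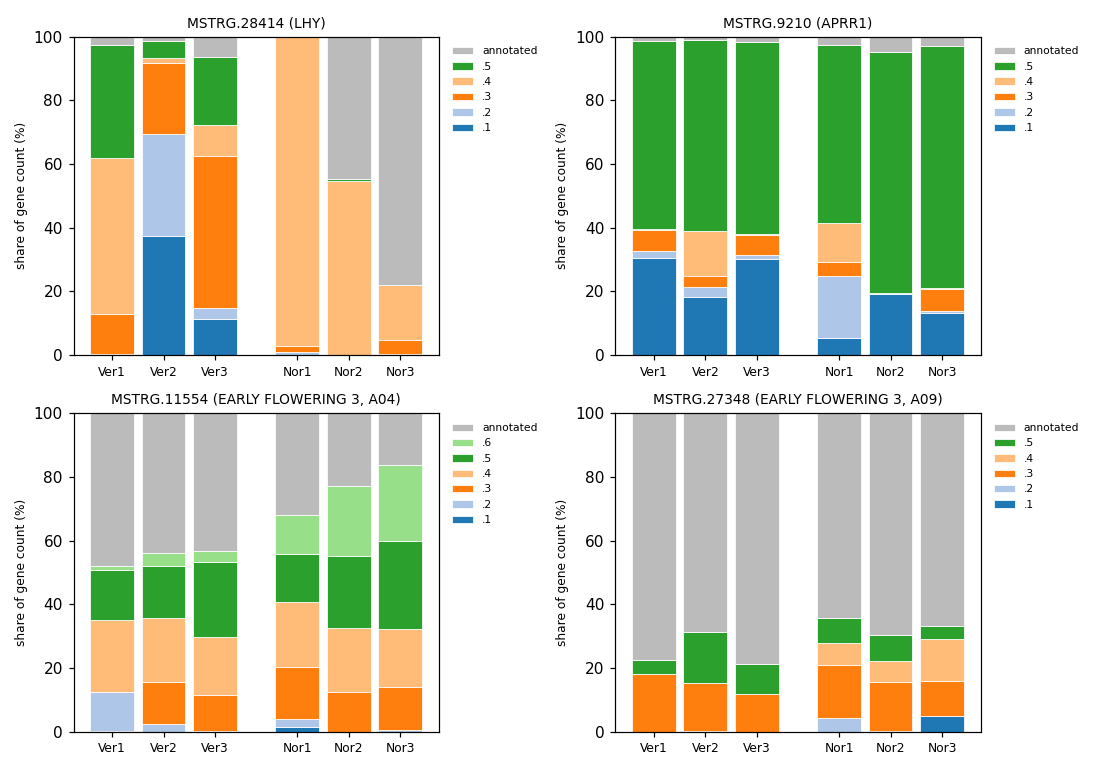
Share of the gene count (%, vertical, from 0 to 100) of each transcript of LHY, APRR1 and both EARLY FLOWERING 3 copies in the 3 Ver and 3 Nor libraries. Colours are class j isoforms by number and grey is the annotated transcript. LHY differs between libraries of a group, whereas EARLY FLOWERING 3 on A04 has 43.3 to 47.9% annotated form in Ver and 16.1 to 31.8% in Nor.

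The other flowering genes showed no separation of that kind. FCA promotes flowering in Arabidopsis through RNA processing, and the FCA-like gene (MSTRG.7773) had 6117, 6742 and 6796 counts in Ver and 5725, 5881 and 6127 in Nor. Its annotated form with 19 exons took 43.2, 24.2 and 28.6% in Ver and 58.4, 22.8 and 25.9% in Nor. MSTRG.7773.7, with 7 exons at the downstream end, took 24.0, 29.1 and 37.2% in Ver and 8.65, 49.4 and 50.4% in Nor. The CONSTANS-LIKE 9-like gene (MSTRG.2842), of a zinc finger family that acts in photoperiodic flowering, had MSTRG.2842.1 at 49.3, 44.2 and 47.9% in Ver and 35.8, 40.4 and 50.5% in Nor.

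The chromatin list held 2 genes, ATXR3-like and HAC12, with 10 isoforms tested and none called for usage or for its own count. The kinase list held 5 genes with 22 isoforms tested, none called for usage and 2 higher in their own counts, where 8.34% of all transcripts were higher. The whole-gene usage test called MSTRG.2577 (edgeR adjusted p = 0.0223) and no other gene of the kinase list. The ubiquitin list matched 8 genes, of which 4 matched only by letters within other words, and none of its 34 tested isoforms was called for usage, while 2 were higher and 2 lower in their own counts, where 8.34% and 8.25% of all transcripts were. The lists of splicing factors and RNA-binding proteins, of light receptors and of cold-response genes matched no gene. All lists were matched on words of the gene descriptions, so genes described in other words are missed. For example, the first of these lists did not match the FCA-like gene (MSTRG.7773). The chromatin list did not match the ATP-dependent helicase BRM-like gene (MSTRG.12423).

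An isoform with the start and end of the annotated transcript, fewer exons and a greater length has the arithmetic of a kept intron, and 51 isoforms of 19 genes had it, as far as exon numbers and lengths can show. They took 3.34, 3.11 and 3.03% of the summed counts of the 143 genes in Ver, against 2.63, 2.61 and 2.27% in Nor. The groups did not overlap, with a difference of 0.657 points (two-sided exact permutation test p = 0.1, the smallest that 3 against 3 libraries allow). Without the abundant MSTRG.15504 they took 3.68, 3.45 and 3.34% in Ver, against 3.25, 3.25 and 2.88% in Nor. Within the 19 genes alone they took 37.1, 35.0 and 34.5% in Ver, against 33.1, 33.7 and 29.5% in Nor. Of the 51, 48 were tested and none had a usage call, and 7 were higher and 3 lower without overlap, a share of the 51 near the background of 17.4% over all transcripts and 17.6% over class j isoforms of all other genes.

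Pairs of transcripts of equal span, 1 exon apart and with the longer form having fewer exons, gave a wider view, added after the data were seen. With at least 12 counts per pair and library there were 85 such pairs in 43 of the genes, and the lengths differed by a median of 99 bases. The longer form held a median of 43.5, 50.6 and 44.3% of the pair in Ver and 43.5, 40.5 and 39.9% in Nor. It was higher in Ver without overlap in 10 pairs, or 11.8%, and lower in 6, or 7.06%. In 2170 pairs of all other genes, 12.8% were higher and 5.76% lower, or 18.6% in all, against 18.8% here. The pair MSTRG.1609.5 and MSTRG.1609.6 was among the lower, with 31.9, 28.65 and 23.5% of the longer form in Ver and 64.5, 81.9 and 48.4% in Nor.

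Circular RNAs, closed rings made from exons or introns, were listed for 10 of the 143 genes, or 6.99%, against 1.27% of the annotated transcripts of all other genes. The other genes were not matched for exon number or count sum, both of which had lower medians there, as given above. There were 14 such circular RNAs of 976, and 11 of them had at most 3 junction reads in all libraries together. A single one had reads in every library. It comes from BraA03g036230.3C and had 7, 4 and 2 junction reads in Ver and 16, 15 and 13 in Nor.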

How the data were processed

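RNA was measured in 3 Ver and 3 Nor libraries, depleted of ribosomal RNA, strand-specific and paired-end. The authors aligned the reads to B. rapa v3.0 and assembled and quantified transcripts with StringTie and Ballgown. The submitters' processing notes name HISAT2, StringTie and TopHat. The estimated counts per transcript were deposited by the authors as whole numbers, without normalization. FPKM values, which the authors scaled by transcript length and library size and in which 0 stands as 0.0001, were used for alternatives and for marker lists. For circular RNAs, the authors deposited junction read counts. The SRPBM signal that the authors deposited for them was not used. No column of a sample outside the 6 libraries was found.

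The members and gene lists were chosen with earlier results of these data known. Shares are estimated counts over the gene_id sum. Usage was tested with diffSpliceDGE and counts with quasi-likelihood F tests of edgeR 4.0.16 (filterByExpr, TMM, R 4.3.3), on all transcripts or genes together with Benjamini-Hochberg adjustment, and replicates were not paired. A usage call needs an adjusted p of at most 0.05 and 10 percentage points. Count calls need a log2 fold change beyond 1 in either direction and p, unadjusted, of 0.05 or less. The SE is the absolute log2 fold change over the square root of F. A count of 0 allows a share of up to 3 counts of the gene sum. These limits cover counting error only. Whether Nor and Ver libraries share dishes of seeds is not settled by the authors' methods. Same-numbered libraries did not deviate together, and a replicate block was fitted as an alternative.

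Named are the 6 genes with the most class j isoforms. Named too are up to 8 called isoforms with the largest rise and 8 with the largest fall, 1 per gene, without overlap and with at least 200 counts in every gene sum, and switches of the main isoform. The last are the 4 most abundant genes without a usage adjusted p of at most 0.05 and up to 3 genes per list with a usage call, which no list had. Genes of the clock and flowering lists, genes with called sums and the pairs were named after their values were seen. Alternatives used RLE factors, other filters, a robust fit, DESeq2 1.42.0, limma 3.58.1 on voom or log2(FPKM + 1) values, and each library left out. The tests were also run on counts simulated at the spread fitted over all transcripts, so that trial is no check of the calls in these genes. Shares and figures were made in Python 3.11.15 with NumPy 2.4.6, pandas 2.3.3, matplotlib 3.10.9 and SciPy 1.17.1.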

Additional observations from a re-analysis of the deposited data

How the results depend on the processing

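The number of usage calls, 11, was 9 to 14 when each library was left out. It was 5 with the replicate block, although same-numbered libraries did not deviate together (correlations of 0.002 to 0.009), 38 with limma on log2(FPKM + 1), 17 without a threshold on the share and 5 at 20 percentage points. The block kept 4 of the 11, and voom called 14, of which 5 were among the 11. Of the 9 named isoforms over 17 settings, 119 of 153 values stayed called. Some settings could not remove a call, such as no threshold on the share, or change its adjusted p, such as shares of FPKM. A refit on all 6 libraries leaves the count shares as they are. The direction of a share difference could therefore turn only with shares of FPKM or a library left out, and it did not. The 92 calls of isoform counts became 164 with DESeq2, 50 with limma on log2(FPKM + 1) and 56 with the adjusted p, and 95 to 111 without each library. Calls of gene sums, 17, were 15 to 17 under all settings, with 17 under the replicate block. The median largest share was 49.1 to 51.0% in Ver and 49.8 to 50.8% in Nor without each library. The single switch of the main isoform became 67 without the need for calls, 0 with the replicate block and 0 to 2 without each library (0 without any single Ver library). Isoforms with the arithmetic of a kept intron took 19.6% in Ver and 16.5% in Nor with any start and end. They took 3.49% in Ver and 3.13% in Nor without MSTRG.15504, a setting chosen after seeing the data like the next, and 35.6% in Ver and 32.1% in Nor within the 19 genes. Without each library they took 3.07 to 3.23% in Ver and 2.44 to 2.62% in Nor. The causes of these shifts were not tested, apart from the fewer or other transcripts that each setting takes in. Depth limits shares of genes with few counts, and the division of reads among overlapping isoforms limits all of them.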
